A study of Mus musculus with 6 samples.

Results

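The quinone, carbonyl and aldo-keto reductases described here are 10 named genes: Nqo1, Nqo2, Ptgr1, Ptgr2, Cbr1, Cbr3, Akr1b3, Akr1b8, Akr1c13 and Akr7a5. They were chosen by name as members of enzyme families that reduce quinones, ketones and aldehydes, and all 10 were found by symbol among the 43629 genes of the deposited tables. RNA was sequenced from primary dermal fibroblasts of newborn mouse skin, cultured for 6 days (passage 1). In caNrf2 cultures (3 libraries) the cells carried Col1a2Cre, a Cre recombinase that the labels place in fibroblasts, together with a constitutively active mutant of Nrf2. In ctrl cultures (3 libraries) they carried Col1a2Cre alone. All mice had a mixed background of 50% C57Bl/6 and 50% FVB/N. Fibroblasts of 3 mice per group were used, and each numbered library was taken to be 1 mouse.

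Many reductases of these families use NADPH or NADH to convert reactive carbonyls into less reactive alcohols or hydroquinones. NQO1 reduces quinones directly to hydroquinones without a semiquinone intermediate, and it is one of the best known targets of NRF2. NRF2, the product of Nfe2l2, binds antioxidant response elements in DNA and is held at low abundance by KEAP1. Prostaglandin reductases saturate the double bond of enones such as 15-keto-prostaglandins, carbonyl reductases act on ketones and quinones, and aldo-keto reductases act on aldehydes, sugars and steroids. Skin fibroblasts meet such carbonyls as products of lipid oxidation.

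Total expected counts were 37031932 to 44925782 in caNrf2 libraries and 30168250 to 45164071 in ctrl libraries. A single read was thus worth 0.0221 to 0.0331 CPM (counts scaled to a common library size with TMM factors). Nfe2l2, the check of the genotype, had 352, 430 and 358 CPM in caNrf2 libraries, against 113, 103 and 112 CPM in ctrl libraries. Of the 8 fibroblast markers, 2 were higher and 4 lower in caNrf2 cultures, and Col1a1, the highest of them in TPM, averaged 11967 ± 762 CPM in caNrf2 cultures and 17603 ± 3234 CPM in ctrl cultures. All 12 macrophage and leukocyte markers were higher in caNrf2 cultures, with a summed level of 210 to 255 TPM (a level per transcript length) in caNrf2 libraries and 28.2 to 85.1 TPM in ctrl libraries, and Lyz2, the highest of them in TPM, averaged 97.6 ± 9.82 CPM in caNrf2 and 26.5 ± 14 CPM in ctrl cultures. Of 8 skeletal muscle markers, 7 were higher (sums of 148 to 198 TPM in caNrf2 and 98 to 118 TPM in ctrl), and Actc1, the marker of highest mean TPM, averaged 45.3 ± 6.29 CPM in caNrf2 and 26.5 ± 2.83 CPM in ctrl cultures. Of 8 keratinocyte markers, 2 were higher (267 to 442 TPM in caNrf2 and 161 to 256 TPM in ctrl), among them Krt14 at 121 ± 20.8 CPM in caNrf2 and 72.5 ± 18.7 CPM in ctrl cultures. Of 6 endothelial markers, Cdh5 alone was called higher (sums of 4.53 to 6.63 TPM in caNrf2 and 3.59 to 5.11 TPM in ctrl), as were 2 of 6 tested melanocyte and Schwann cell markers (17.5 to 23.3 TPM in caNrf2 and 12.9 to 16.9 TPM in ctrl). Of all 15341 genes tested, 12.5% were called higher and 9.03% lower (edgeR adjusted p under 0.05), and lists of 6 or 8 genes are too short to compare with that share. No marker of these lists was at 0 in every library, and the part of these cells in the reductase levels was not tested. Fewer cells of a type and less RNA per cell cannot be told apart in these bulk samples.

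The 250 bases upstream of the RefSeq start site are shown for 5 of the genes (build GRCm38.p6, strand of the gene, 5′ to 3′). They are both members of the pairs Nqo1 and Nqo2 and Cbr3 and Cbr1, which differed in response, and Akr1c13, which holds a looser form of the antioxidant response element core. Capitals mark matches on either strand to TGANNNNGC (looser core) or GCGTG (core of the dioxin response element).
Nqo1, chr8:107403206-107403455, minus strand: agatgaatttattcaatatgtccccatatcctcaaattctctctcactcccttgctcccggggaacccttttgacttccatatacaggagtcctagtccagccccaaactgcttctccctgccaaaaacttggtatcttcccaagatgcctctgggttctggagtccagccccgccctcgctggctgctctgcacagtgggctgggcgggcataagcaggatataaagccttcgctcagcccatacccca
Nqo2, chr13:33964409-33964658, plus strand: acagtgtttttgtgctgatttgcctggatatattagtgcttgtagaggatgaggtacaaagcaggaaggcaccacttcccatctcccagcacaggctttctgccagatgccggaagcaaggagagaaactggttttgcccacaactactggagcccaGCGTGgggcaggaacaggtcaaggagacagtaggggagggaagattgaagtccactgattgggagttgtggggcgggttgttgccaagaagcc
Cbr3, chr16:93682969-93683218, plus strand: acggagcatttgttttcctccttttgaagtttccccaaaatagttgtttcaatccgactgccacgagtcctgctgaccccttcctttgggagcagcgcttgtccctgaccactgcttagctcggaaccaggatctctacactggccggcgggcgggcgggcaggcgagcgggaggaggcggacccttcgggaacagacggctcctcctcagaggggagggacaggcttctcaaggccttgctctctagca
Cbr1, chr16:93607587-93607836, plus strand: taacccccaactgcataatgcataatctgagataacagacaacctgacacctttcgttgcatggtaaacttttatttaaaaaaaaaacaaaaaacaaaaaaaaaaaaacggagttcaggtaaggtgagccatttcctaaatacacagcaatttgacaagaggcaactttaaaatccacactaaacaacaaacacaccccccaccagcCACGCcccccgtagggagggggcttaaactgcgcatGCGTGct
Akr1c13, chr13:4190937-4191186, plus strand: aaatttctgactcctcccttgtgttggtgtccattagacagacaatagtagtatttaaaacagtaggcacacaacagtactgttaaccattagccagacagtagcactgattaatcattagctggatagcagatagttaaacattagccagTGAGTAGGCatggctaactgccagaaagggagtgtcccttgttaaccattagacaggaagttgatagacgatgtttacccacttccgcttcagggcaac

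RefSeq promoter windows of 300 bases (250 before and 50 after the start site) were matched for 9 of the 10 genes, with 2 windows for Nqo2. The core TGACNNNGC, searched on both strands, was in 0 of these 10 windows and in 12.4% of all 32851 windows of that length. The looser TGANNNNGC was in 2 of them, at position -99 of Akr1c13 and across the start site of Akr1b8, and in 41.3% of all windows. GCGTG was in 6 of the 10 windows (Nqo2, with 2 windows, Ptgr2, Cbr1, Akr1b8 and Akr7a5) and in 32.4% of all. The AP-1 motif TGANTCA was in 1, the second window of Nqo2, and in 7.81% of all. A match is a description of letters, and the windows cover only the bases next to the start site.

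All 10 reductase genes passed the filter on low counts, and 8 of them were called higher in caNrf2 cultures (edgeR adjusted p under 0.05), while 0 were called lower. At an unadjusted p under 0.05 edgeR had Akr7a5 as a 9th gene, higher, and none lower. That looser threshold was passed by 5396 of all 15341 genes in either direction. At the adjusted threshold DESeq2 and limma-voom also called 8 higher and 0 lower. Of all 15341 genes tested, 12.5% were called higher and 9.03% lower. Every caNrf2 library lay above every ctrl library for 9 of the 10 members, which was so for 22.0% of all genes. The median log2 fold change was 1.47 over the 10 genes and 0 over all genes tested. Of the 10 genes, 5 were called and rose 2-fold or more, as did 5.25% of all 15341 genes tested. The genes were chosen by name with earlier results of these data known, and these counts describe them.

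**Figure D1:**
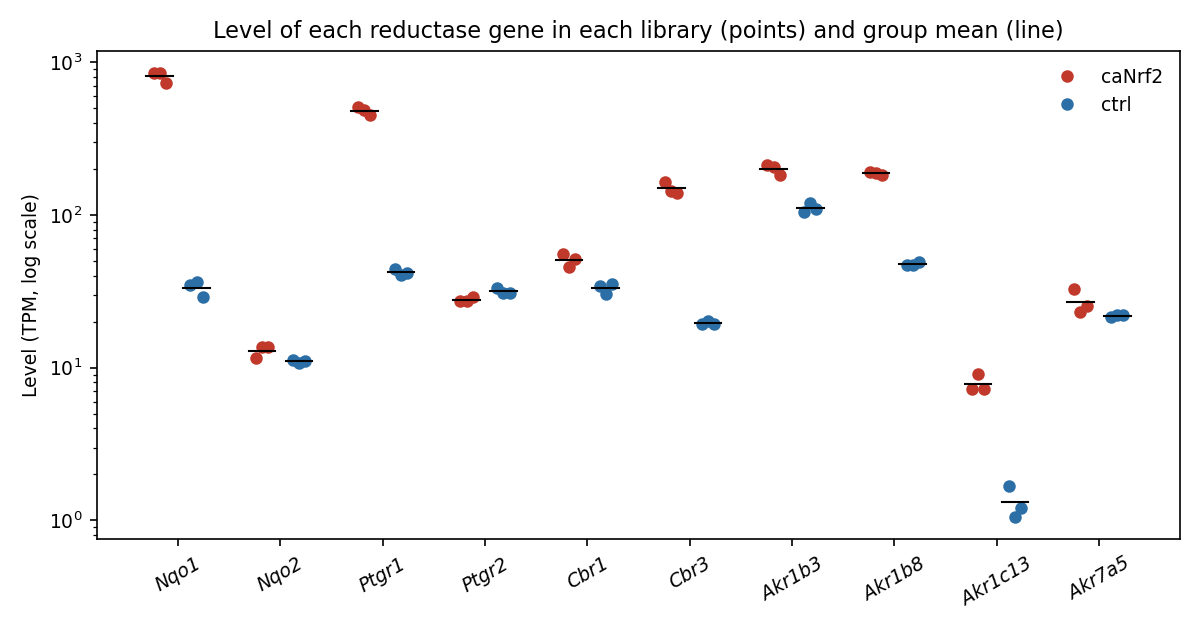
Level of each of the 10 reductase genes in TPM (log scale), with caNrf2 libraries in red and ctrl libraries in blue, a point per library and a line at the group mean. Nqo1 and Ptgr1 show the widest gaps between groups, at means of 807 and 480 TPM in caNrf2 libraries against 33.3 and 42.1 TPM in ctrl libraries, while the groups of Ptgr2, Nqo2 and Akr7a5 lie close together.

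The quinone reductases differed most within a pair. Nqo1 (ENSMUSG00000003849, chromosome 8, 107388225 to 107403206, minus strand, GRCm38), the reductase that uses NADPH or NADH, had 735, 670 and 579 CPM in caNrf2 libraries, against 27.3, 28.4 and 22.6 CPM in ctrl libraries. The lowest caNrf2 library was 20.3-fold above the highest ctrl library. Nqo1 averaged 661 ± 78.6 CPM in caNrf2 cultures and 26.1 ± 3.09 CPM in ctrl cultures (SD, n = 3 each), a 25.3-fold rise with a log2 fold change of 4.66, an SE of 0.14 and an edgeR adjusted p of 1.38e-07. By log2 fold change Nqo1 ranked 72 among 15341 genes. All of its reads were assigned to its only listed transcript, ENSMUST00000003947 of 6 exons.

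Nqo2 (ENSMUSG00000046949, chromosome 13, 33964659 to 33988465, plus strand) encodes the related quinone reductase that accepts dihydronicotinamide riboside as electron donor in place of NADPH. It had 26.4, 28.3 and 28.5 CPM in caNrf2 libraries, against 23.3, 22.4 and 22.6 CPM in ctrl libraries. The groups did not overlap but lay close, at a 1.22-fold rise (log2 fold change 0.29, SE 0.07, edgeR adjusted p = 0.0262). The call was lost without a filter on low counts (adjusted p = 0.0536, over the 19 alternatives 0.0224 to 0.278), and when some libraries were left out. The log2 fold change was then 0.27 without ctrl 2, 0.28 without ctrl 3, 0.26 without caNrf2 2 or caNrf2 3, and 0.26 or 0.25 without both libraries numbered 2 or 3. The serpin gene Serpinb6a overlaps Nqo2 on the opposite strand, and 18.9% of the 50-base windows of the main Nqo2 transcript also occur in its transcripts. Serpinb6a averaged 426 ± 39.1 CPM in caNrf2 cultures and 231 ± 11.8 CPM in ctrl cultures (edgeR adjusted p = 0.000295). Without a stated strand setting, reads of Nqo2 and Serpinb6a over shared exons cannot be told apart, so the small change of Nqo2 is uncertain.

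The prostaglandin reductases had the same contrast. Ptgr1 (ENSMUSG00000028378, chromosome 4, 58965439 to 58987119, minus strand), which reduces 15-keto-prostaglandins and alkenals such as 4-hydroxynonenal and oxidizes leukotriene B4, had 663, 582 and 546 CPM in caNrf2 libraries. In ctrl libraries it had 52.9, 47.7 and 49.6 CPM. The rise was 11.9-fold (log2 fold change 3.57, SE 0.11, edgeR adjusted p = 1.38e-07), and the lowest caNrf2 library stood 10.3-fold above the highest ctrl library. Ptgr1 has 1 listed transcript, and none of its 50-base windows occurs in transcripts of another gene.

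Ptgr2 (ENSMUSG00000072946, chromosome 12, 84285232 to 84315832, plus strand), a reductase of 15-keto-prostaglandins without the leukotriene activity, was the only member with a negative log2 fold change. It had 35.1, 32.4 and 36 CPM in caNrf2 libraries, against 39.7, 36.6 and 38.4 CPM in ctrl libraries. Each caNrf2 library was below each ctrl library, but the difference was not called (log2 fold change -0.15, SE 0.08, edgeR adjusted p = 0.197, over the 19 alternatives 0.128 to 0.507). Its 9 listed transcripts shared the reads, and ENSMUST00000123614 held 67.5 to 74.9% of them in caNrf2 libraries and 68.9 to 74.4% in ctrl libraries. Of the 50-base windows of that transcript, 59.3% also occur in transcripts of Gm47484, a gene not used here, so the reads of Ptgr2 are uncertain.

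**Figure D2:**
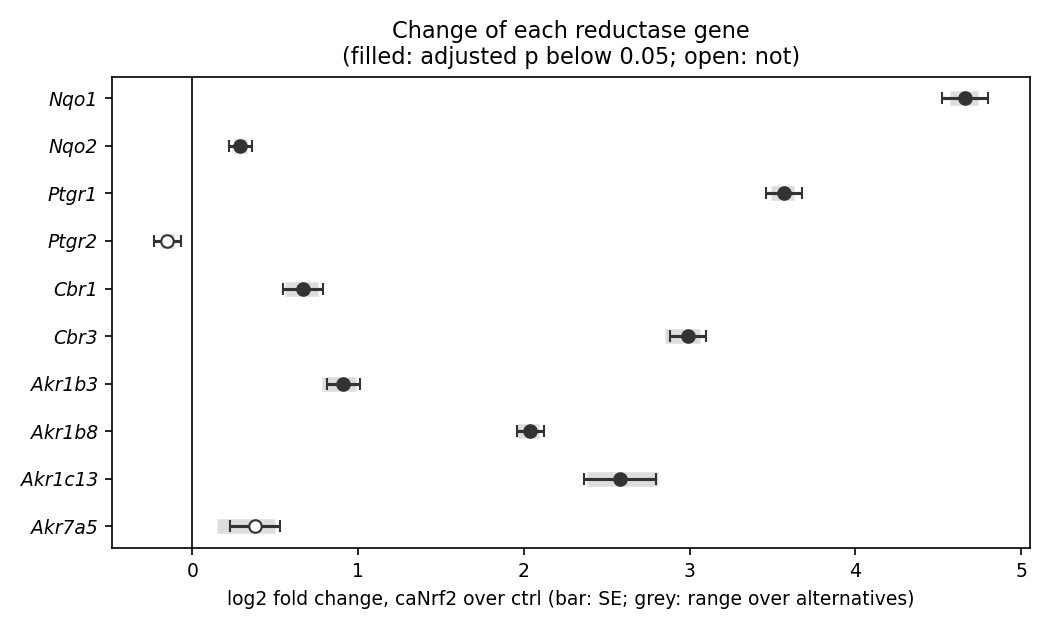
Log2 fold change (caNrf2 over ctrl) of each reductase gene from edgeR, with the SE as a bar and the range over the 19 alternatives in grey. Filled points passed an adjusted p of 0.05, and the 2 open points, Ptgr2 and Akr7a5, did not.

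The carbonyl reductases Cbr1 and Cbr3 lie in tandem on chromosome 16, with 72710 bases between them, and exchanged their order of abundance. Cbr3 (ENSMUSG00000022947, 93683215 to 93690990, plus strand) encodes an NADPH-dependent carbonyl reductase close in sequence to the product of Cbr1. It had 104, 83.4 and 80.5 CPM in caNrf2 libraries, against 11.2, 11.6 and 11 CPM in ctrl libraries. The lowest caNrf2 library stood 6.93-fold above the highest ctrl library. The rise was 7.93-fold (log2 fold change 2.99, SE 0.11, edgeR adjusted p = 4.69e-07).

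Cbr1 (ENSMUSG00000051483, 93607837 to 93610505, plus strand), which reduces quinones, prostaglandins and lipid aldehydes, had 37.3, 28.3 and 31.6 CPM in caNrf2 libraries. In ctrl libraries it had 21.1, 18.5 and 21.4 CPM, and the groups did not overlap. The rise was 1.59-fold (log2 fold change 0.67, SE 0.12, edgeR adjusted p = 0.00387). Only 0.0892% of the 50-base windows of Cbr3 occur in Cbr1 transcripts, so few reads of that length could be divided between them.

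Among the aldo-keto reductases, Akr1b3 and Akr1b8 are neighbours on chromosome 6 on opposite strands, 36622 bases apart. Akr1b3 (ENSMUSG00000001642, 34303934 to 34317497, minus strand) is the mouse aldose reductase, which turns glucose into sorbitol in the polyol pathway. It had 165, 147 and 130 CPM in caNrf2 libraries, against 73.8, 85 and 76.4 CPM in ctrl libraries. The groups did not overlap, at 1.88-fold (log2 fold change 0.91, SE 0.10, edgeR adjusted p = 0.000418). Of its 50-base windows, 86.2% also occur in transcripts of other genes. Gm38056 holds the most, 82.4% of the windows, but had only 14 to 22 expected counts in caNrf2 libraries and 18 to 37 in ctrl libraries. Gm43855, a gene not used here, also shares windows, so the reads of Akr1b3 are uncertain. Another is Gm6644, which RefSeq lists as a transcribed pseudogene of Akr1b3. Gm6644 held 747 to 959 expected counts in caNrf2 libraries and 284 to 487 in ctrl libraries, and the ratio of caNrf2 to ctrl mean CPM was 1.91 for Akr1b3 and Gm6644 summed and 1.88 for Akr1b3 alone.

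Akr1b8 (ENSMUSG00000029762, 34354119 to 34368463, plus strand), an aldose reductase-like enzyme of reactive aldehydes known as FR-1 for its induction by fibroblast growth factor, had 143, 128 and 125 CPM in caNrf2 libraries. In ctrl libraries it had 31.7, 31.9 and 33.1 CPM, a spread of 2.3% of their mean. The rise was 4.11-fold (log2 fold change 2.04, SE 0.08, edgeR adjusted p = 5.17e-07). Windows shared with other genes made up 3.21% of its main transcript.

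Akr1c13 (ENSMUSG00000021213, chromosome 13, 4191184 to 4205596, plus strand), a member of the hydroxysteroid dehydrogenase branch of the family, was the scarcest of the 10. Its rounded expected counts were 169, 205 and 185 in caNrf2 libraries, against 35, 26 and 21 in ctrl libraries. These correspond to 4.57, 4.62 and 4.26 CPM in caNrf2 libraries and 0.987, 0.58 and 0.694 CPM in ctrl libraries. The groups were far apart, at 5.97-fold (log2 fold change 2.58, SE 0.22, edgeR adjusted p = 7.1e-05). The paralog Akr1c12 shares 28.6% of its windows but held at most 5 expected counts in a caNrf2 library and 0 in ctrl libraries.

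Akr7a5 (ENSMUSG00000028743, chromosome 4, 139310744 to 139318426, plus strand), an aldehyde reductase of the aflatoxin aldehyde reductase branch, was not called. It had 22.9, 14.8 and 16.3 CPM in caNrf2 libraries, against 13.6, 13.9 and 14.1 CPM in ctrl libraries. The ctrl libraries were within 1.92% of their mean (SD), whereas caNrf2 replicate 1 stood above the other 2 caNrf2 libraries. The log2 fold change was 0.38 with an SE of 0.15 (edgeR adjusted p = 0.118, over the 19 alternatives 0.0605 to 0.277). It was 0.15 without replicate 1 of both groups and 0.17 without caNrf2 replicate 1 alone. That library had the highest CPM of its group for 7 of the 10 reductase genes, a count that was not set against all genes. Nfe2l2 was highest in caNrf2 replicate 2, and its relation to these levels was not tested.

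Summed over the 10 genes, the level per length was 2051, 1989 and 1808 TPM in caNrf2 libraries, against 351, 359 and 349 TPM in ctrl libraries. The order of levels also differed. In caNrf2 libraries Nqo1 led at 807 ± 69.1 TPM and made up 40.2 to 42.6% of the sum, against 8.3 to 10.1% in ctrl libraries. Ptgr1 followed at 480 ± 25.9 TPM, then Akr1b3 (200 ± 15.9), Akr1b8 (187 ± 4.31) and Cbr3 (149 ± 13.6), and of these neighbours only Akr1b3 and Akr1b8 overlapped between libraries. Cbr1 stood at 50.6 ± 4.64, Ptgr2 at 27.9 ± 0.942, Akr7a5 at 27 ± 4.96, Nqo2 at 12.9 ± 1.19 and Akr1c13 at 7.87 ± 1.1 TPM, with Ptgr2 and Akr7a5 overlapping. In ctrl libraries the aldose reductase gene Akr1b3 led at 111 ± 8.19 TPM and made up 29.7 to 33.5% of the sum, against 10.1 to 10.4% in caNrf2 libraries. After it came Akr1b8 (47.5 ± 1.24), Ptgr1 (42.1 ± 2.08), Nqo1 (33.3 ± 3.87), Cbr1 (33.2 ± 2.59), Ptgr2 (31.8 ± 1.44), Akr7a5 (21.9 ± 0.335), Cbr3 (19.6 ± 0.544), Nqo2 (11 ± 0.197) and Akr1c13 (1.32 ± 0.333 TPM). Nqo1 could not be ordered against Cbr1 there, nor Cbr1 against Ptgr2, since their libraries overlapped.

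**Figure D3:**
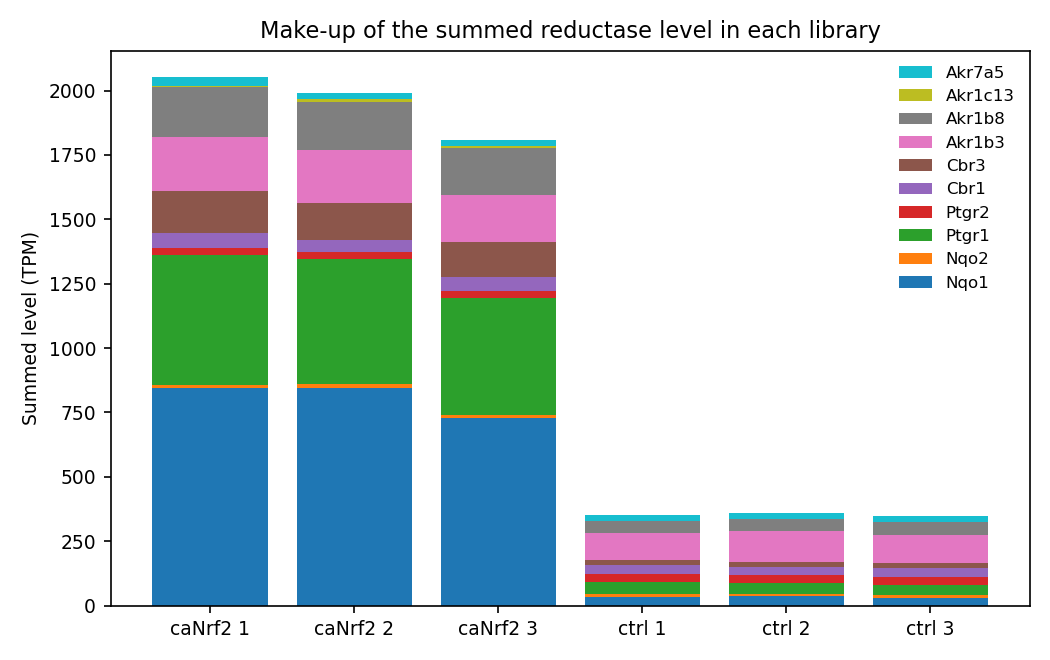
Summed TPM of the 10 reductase genes in each library, with caNrf2 libraries on the left, ctrl libraries on the right and a coloured segment per gene. Nqo1 and Ptgr1 fill the larger part of the bars of 1808 to 2051 TPM in caNrf2 libraries, and Akr1b3 holds the largest segment of the bars of 349 to 359 TPM in ctrl libraries.

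In each pair of relatives, the gene with the larger log2 fold change was set over the other. The ratio was higher in every caNrf2 library than in any ctrl library. The log2 ratio of Nqo1 to Nqo2 (TPM, pseudocount 0.1) averaged 5.96 ± 0.23 in caNrf2 libraries and 1.58 ± 0.18 in ctrl libraries, a difference of 4.38 with an SE of 0.17. For Ptgr1 over Ptgr2 the averages were 4.1 ± 0.12 in caNrf2 and 0.41 ± 0.03 in ctrl libraries, a difference of 3.7 (SE 0.07). For Cbr3 over Cbr1 the log2 ratio was 1.55 ± 0.11 in caNrf2 libraries and -0.76 ± 0.15 in ctrl libraries, so that Cbr3 was 2.93 times the level of Cbr1 in caNrf2 libraries and 0.592 times in ctrl libraries. Akr1b8 over Akr1b3 averaged -0.09 ± 0.08 in caNrf2 and -1.22 ± 0.11 in ctrl libraries, a difference of 1.13 (SE 0.08), which brought Akr1b8 to 0.937 times the level of Akr1b3 in caNrf2 libraries, against 0.428 times in ctrl libraries. The groups did not overlap in any of the 4 pairs. A two-sided exact permutation test gave p = 0.1 for each pair, also after adjustment over the 4 pairs, which is the smallest p that 3 against 3 libraries allow. The ratios restate the changes of the single genes given above, and the pairs were chosen with earlier results of these data known. Their separation and these p-values are therefore no separate evidence.

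**Figure D4:**
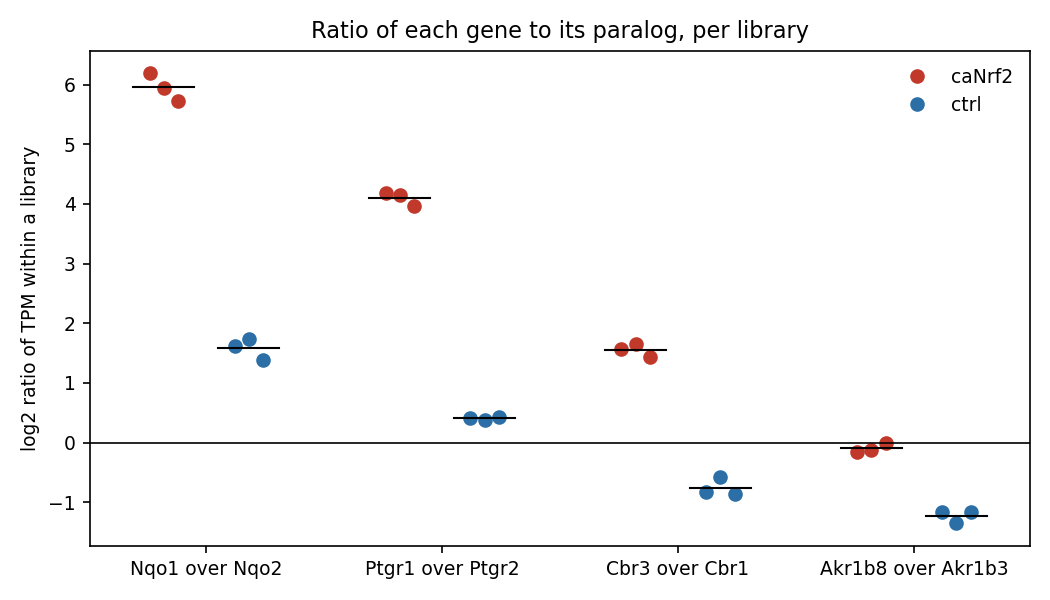
Log2 ratio of the TPM of each gene to that of its relative, with caNrf2 libraries in red, ctrl libraries in blue and a line at the group mean. In all 4 pairs the caNrf2 libraries lie above the ctrl libraries, and the ratio of Cbr3 to Cbr1 is above 0 in caNrf2 and below 0 in ctrl libraries.

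No change in which transcripts of a gene were used was called. In 4 members (Nqo2, Ptgr2, Akr1b3 and Akr1c13) at least 2 transcripts passed the filter, and 0 of them were called for transcript usage by edgeR diffSpliceDGE (adjusted p = 1 for each, unadjusted p from 0.373 to 0.75, so 0 under 0.05) or by limma diffSplice (adjusted p from 0.756 to 0.965). Over all 7992 genes with at least 2 kept transcripts, 1.21% were called by the first tool and 0.438% by the second. Some alternatives gave lower diffSpliceDGE p-values, but none called a member. Akr1b3 had an unadjusted p of 0.00286 with posterior mean counts (adjusted p = 0.0931) and 0.02 without caNrf2 replicate 2 (adjusted p = 0.361). Ptgr2 had 0.027 without caNrf2 replicate 1 (adjusted p = 0.408). ENSMUST00000058978 held 80.4 to 87.2% of the Nqo2 reads in caNrf2 libraries and 77.7 to 90.2% in ctrl libraries. ENSMUST00000021634 held 82.9 to 87.9% of the Akr1c13 reads in caNrf2 libraries and 76.2 to 88.8% in ctrl libraries.

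Other aldo-keto reductases moved in the same direction where they were called. Of 16 listed, 8 passed the filter, 6 were higher and 0 lower, with a median log2 fold change of 0.45. Over all genes tested, 12.5% were higher and 9.03% lower. The largest changes were those of 2 genes of the Akr1c cluster next to Akr1c13. Akr1c14, a 3-alpha-hydroxysteroid dehydrogenase, averaged 17.5 ± 2.2 CPM in caNrf2 cultures and 0.642 ± 0.157 CPM in ctrl cultures (edgeR adjusted p = 6.18e-07). Akr1c18, the 20-alpha-hydroxysteroid dehydrogenase that inactivates progesterone, averaged 5.61 ± 0.794 CPM in caNrf2 and 0.14 ± 0.0397 CPM in ctrl cultures (adjusted p = 2.23e-06). At that ctrl level it passed the filter on low counts only through its caNrf2 libraries. The count of 6 fell to 3 without ctrl replicate 2 and without replicate 2 or 3 of both groups. Of the 8 untested genes, Akr1b7, Akr1c6, Akr1c20 and Akr1c21 had 0 counts in every library.

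Most other short-chain carbonyl reductases were not called. Of 34 tested, 5 were higher and 3 lower, close to the shares over all genes, with a median log2 fold change of -0.03. Hsd11b1, which regenerates active glucocorticoid, rose 3.64-fold (3.91 ± 0.454 CPM in caNrf2 and 1.07 ± 0.0516 CPM in ctrl cultures, edgeR adjusted p = 0.000165), and the ketone body enzyme gene Bdh1 rose 1.87-fold. Rdh10, the retinol dehydrogenase of retinoic acid synthesis, was at 0.473-fold (21.9 ± 3.03 CPM in caNrf2 and 46.3 ± 7.03 CPM in ctrl cultures, adjusted p = 0.000819), and Hsd17b11 fell to 0.663-fold. The other carbonyl reductase genes Cbr2 and Cbr4 were not called (log2 fold changes 0.52 and -0.08). Without replicate 2 or 3 of both groups 3 were higher, and without caNrf2 replicate 1 or replicate 1 of both groups 5 were lower.

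Of 11 medium-chain relatives, the family that also holds Ptgr1 and Ptgr2, 4 were higher and 2 lower (median log2 fold change -0.03). The shares over all genes tested were 12.5% higher and 9.03% lower. Adh7, a retinol-active alcohol dehydrogenase, rose 6.01-fold (588 ± 49 CPM in caNrf2 and 97.8 ± 10.3 CPM in ctrl cultures, edgeR adjusted p = 8.95e-07). Sord, which oxidizes the sorbitol made by aldose reductase, rose 1.90-fold (72.9 ± 3.83 CPM in caNrf2 and 38.3 ± 2.96 CPM in ctrl cultures, adjusted p = 9.28e-05). Adh1 fell to 0.397-fold, and Cryz, the quinone reductase zeta-crystallin, to 0.749-fold (adjusted p = 0.00701). Without replicate 2 or 3 of both groups 1 gene was lower.

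Of 15 tested flavin and heme-breakdown reductases, 6 were higher and 2 lower (median log2 fold change 0.17), beside 12.5% higher and 9.03% lower over all genes. Blvrb, biliverdin reductase B, rose 19.6-fold (322 ± 71.9 CPM in caNrf2 and 16.4 ± 3.03 CPM in ctrl cultures, edgeR adjusted p = 1.5e-06), and Txnrd1, the cytosolic thioredoxin reductase, 5.3-fold. The cytochrome b5 reductase gene Cyb5r1 fell to 0.515-fold, and Cyb5r2 averaged 0.0665 ± 0.0362 CPM in caNrf2 and 0.74 ± 0.469 CPM in ctrl cultures. With a filter of 1 CPM in 3 libraries Cyb5r2 was no longer tested and 1 gene was lower.

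A list for the supply of NADPH, the cofactor of most of these reductases, had 5 of 11 genes higher and 0 lower (median log2 fold change 0.19). Among all genes tested 12.5% were higher and 9.03% lower. It also holds genes of enzymes that form no NADPH themselves, such as Taldo1. Taldo1 and Pgd of the pentose phosphate pathway rose 5.98-fold and 4.9-fold (edgeR adjusted p = 4.19e-07 and 8.25e-07). Of 21 other well-known NRF2 targets 20 were higher (median log2 fold change 2.40), among them the glutathione S-transferase genes Gsta4 (355 ± 35.2 CPM in caNrf2 and 14.8 ± 0.787 CPM in ctrl cultures) and Gsta3 (169 ± 24.4 CPM in caNrf2 and 0.333 ± 0.163 CPM in ctrl cultures). Part of these lists, and their direction, were known from earlier results of the same libraries.

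**Figure D5:**
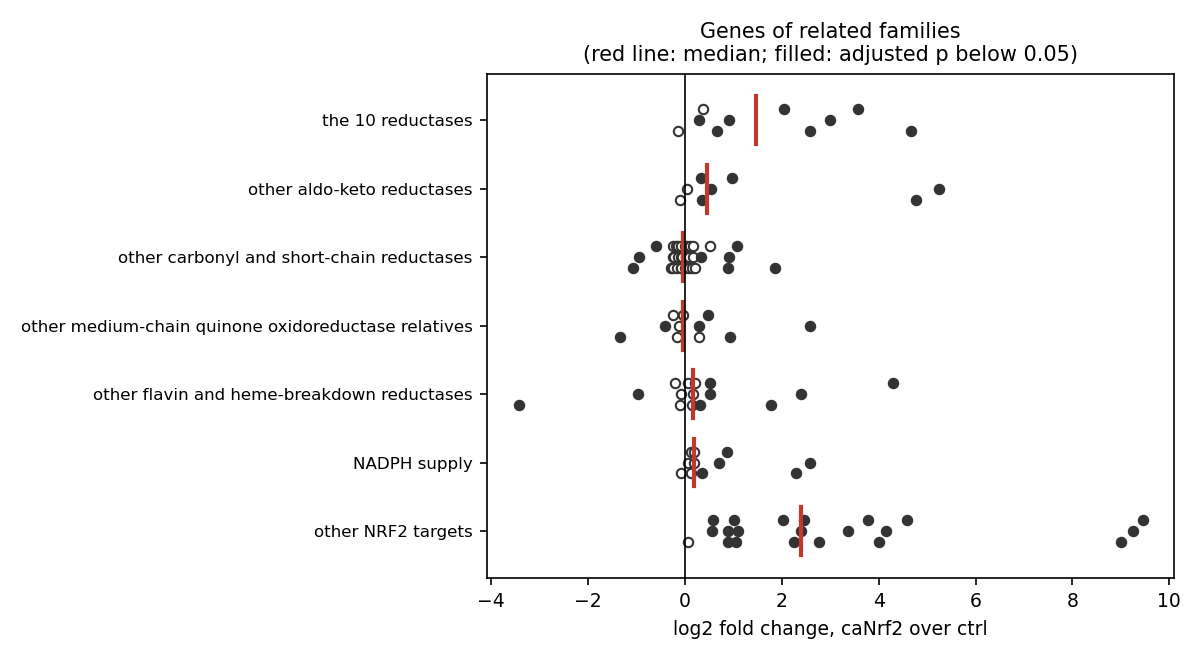
Log2 fold changes (caNrf2 over ctrl) of the 10 reductases and of the tested genes of 6 related lists, with a point per gene, filled where the adjusted p was under 0.05, and a red line at the list's median. The median was 1.47 for the 10 reductases, between -0.03 and 0.45 for the other reductase and NADPH lists, and 2.40 for the other NRF2 targets.

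The genes whose pattern over the 6 libraries was most like that of Nqo1, by the root mean square difference of centred log2 CPM among 10823 genes, were Tmem178 (0.13), Gsta4 (0.15), the cytokine gene Il7 (0.18), the interleukin-1 family gene Il1f9 (0.22) and Lix1 (0.23). Their fold changes were 24 to 32, against 25.3 for Nqo1. Il7 averaged 21.6 ± 1.59 CPM in caNrf2 and 0.7 ± 0.148 CPM in ctrl cultures. Among the other reductases the nearest in this measure was Ptgr1 (0.56) and the farthest Ptgr2 (2.41).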

How the data were processed

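Per the file headers, each library's table lists 104129 Ensembl transcripts with transcript counts, TPM and FPKM, each also as a posterior estimate. The counts are not whole and are taken as RSEM expected counts, since the submitters' processing notes list RSEM 1.2.21 beside CASAVA 1.8 and build GRCm38. No source used here gives the aligner, annotation release, read length or strand setting. The deposited FPKM values were not used.

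Expected counts deposited by the authors were added up by gene ID, rounded and tested with edgeR 4.0.16 in R 4.3.3, using filterByExpr (minimum count 10, minimum total 15), TMM scaling and a quasi-likelihood test (glmQLFTest). P-values were adjusted by Benjamini-Hochberg over 15341 genes, with calls at 0.05. CPM values are mean ± SD (n = 3). The authors' deposited TPM, summed per gene, served for levels and ratios between genes. Transcript usage was tested with edgeR diffSpliceDGE. On simulated transcripts it called too many unchanged genes, so limma 3.58.1 diffSplice was added after seeing the data. Alternatives were other scalings and filters, DESeq2 1.42.0, limma-voom, unrounded and posterior counts, left-out libraries and a replicate block.

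Shared windows are exact 50-base matches to GENCODE M21 transcripts on either strand (GRCm38), and promoters are from RefSeq (GRCm38.p6). P-values measure the spread between these libraries, and replicate libraries differed by more than sampling noise. The members and lists were chosen with earlier results of these data known. The genes named are the 10 members, Nfe2l2, per related list the 2 rising and 2 falling called genes of smallest adjusted p, the 5 genes most like Nqo1, and the gene of highest mean TPM per marker list (that of the melanocyte and Schwann cell list, Dct, averaged 5.56 ± 1.48 CPM in caNrf2 and 4.11 ± 0.474 CPM in ctrl cultures). Genes that overlap or share sequence with members, untested genes at 0, Cbr2 and Cbr4 were named after their values were seen.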

Additional observations from a re-analysis of the deposited data

How the results depend on the processing

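Of the 10 reductases, 9 kept their direction and their side of the threshold under all 19 alternatives. Nqo2 kept its direction but lost its call without a filter on low counts (log2 fold change 0.28) and in 6 of the 9 settings that leave libraries out, over which its log2 fold change was 0.25 to 0.33. The number of members called higher was 7 or 8 throughout, with 0 lower. With libraries left out, 1071 to 1829 of all genes were called higher and 531 to 1252 lower (1212 higher and 613 lower without replicate 2 of both groups, 1071 and 531 without replicate 3 of both, 864 lower without caNrf2 replicate 2 and 823 lower without ctrl replicate 3), against 1917 and 1385 with all libraries. In the same settings 3 to 5 other aldo-keto reductases were higher, 3 to 5 short-chain reductases higher and 2 to 5 lower, and 1 to 3 medium-chain relatives lower. With a filter of 1 CPM in 3 libraries, 1 flavin reductase was lower in place of 2, since Cyb5r2 was not tested. The looser core TGANNNNGC was in 2 member windows, against 0 for TGACNNNGC. Same-numbered libraries correlated in their deviations from the group means at 0.214, 0.209 and 0.0953. By this measure 2 of the caNrf2 libraries correlated best with the ctrl library of their own number. The main test did not pair the libraries, and whether the numbers mark pairs was not tested. With the replicate block 8 members were called higher and 1888 and 1330 of all genes higher and lower. Akr1c13 rests on 21 to 35 counts per ctrl library, which limits its precision.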

Other observations

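Within 200000 bases of the 10 members, a window chosen after the values were seen, 48 other genes were tested, of which 12 were called higher in caNrf2 cultures, 0 lower and 36 neither (edgeR adjusted p under 0.05). Over all genes tested, 12.5% were called higher and 9.03% lower. Akr1b10, Akr1c14 and Akr1c18 are among the 12 and were already counted with the other aldo-keto reductases. Around Cbr1 and Cbr3 on chromosome 16 none of the other tested genes was called. Among them Setd4, which lies 3774 bases from Cbr1, was at 1.12-fold (adjusted p = 0.465), Dop1b at 1.13-fold (0.13), Morc3 at 1.01-fold (0.955) and Chaf1b at 0.811-fold (0.0539). On chromosome 6, Akr1b10, 15755 bases from Akr1b8, was 1.26-fold higher (20.9 ± 1.7 CPM in caNrf2 and 16.6 ± 0.756 CPM in ctrl cultures, adjusted p = 0.0304). On chromosome 8 the proteasome gene Psmd7, 177175 bases from Nqo1, was 1.37-fold higher (165 ± 8.35 CPM in caNrf2 and 120 ± 5.77 CPM in ctrl cultures, adjusted p = 0.00411), while the nearest genes, Nfat5 (8708 bases away, 0.756-fold, adjusted p = 0.0738) and Nob1 (9280 bases away, 1.13-fold, 0.121), were not called. Near Nqo2 on chromosome 13, the transporter gene Slc22a23, 190693 bases away, was 8.86-fold higher (134 ± 13.1 CPM in caNrf2 and 15.1 ± 0.468 CPM in ctrl cultures, adjusted p = 1.34e-07). Tubb2a (2.06-fold), Tubb2b (1.61-fold), Serpinb6a and Serpinb6c were also called higher there, Serpinb6c at only 0.634 ± 0.284 CPM in caNrf2 and 0.0628 ± 0.0546 CPM in ctrl cultures. The remaining calls were Ecpas near Ptgr1 (1.24-fold), Entpd5 (2.08-fold) and Aldh6a1 (1.28-fold) near Ptgr2, and Akr1c18 and Akr1c14 near Akr1c13. No relation of these neighbours to the reductases was tested.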
